A study of Mus musculus with 20 samples.

Results

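The genes described here are 9 genes of the endothelium and of blood vessel growth, *Pecam1*, *Cdh5*, *Kdr*, *Flt1*, *Tek*, *Angpt1*, *Angpt2*, *Vegfa* and *Vegfb*. They were picked by name for their role, with earlier results of these data known, from the 36611 genes to which the deposited transcripts could be summed, and all 9 passed the filter on low values in each comparison. The RNA came from inguinal fat (iWAT), a subcutaneous white depot of the groin, taken from 20 females that formed 4 groups of 5 each. The control mice were littermates that carry *Tmem120a* with loxP sites around exons 2 and 3 (*Tmem120a* fl/fl) and no Cre, and the labels call them wild type and give the strain as C57BL/6. The Ad-Tmem120a-/- mice, called knockout here, carry the same floxed alleles together with Cre under the promoter of the adiponectin gene. The authors chose this Cre line for activity in mature adipocytes and for its absence from brain, macrophages and muscle. Whether endothelial and mural cells kept an intact *Tmem120a* was not tested. Mice of both genotypes ate a diet with 10.5% fat (LFD) or one with 58% fat (HFD) for 15 weeks and were 6 months old when the tissue was taken. The comparisons ask whether genes of the fat vasculature differ between knockout and control on each diet, between HFD and LFD in each genotype, and whether the diet difference depends on the genotype.

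Blood vessels of fat are lined by endothelial cells and wrapped by mural cells, and they widen their network as fat depots expand. Adipocytes and stromal cells release VEGF ligands, which endothelial cells sense through the receptor tyrosine kinases that *Kdr* and *Flt1* encode, while angiopoietins act on the receptor encoded by *Tek* and set how firmly vessels are held together. *Pecam1* and *Cdh5* encode adhesion molecules of the junctions between endothelial cells and serve as markers of that cell type.

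The libraries held from 54605101 to 92387737 estimated counts each. The 9 genes were counted at depths from 543 reads upward, the lowest being *Vegfb* in 1 library, so that counting error was small beside the differences between mice. The deletion was visible in the RNA of whole fat: over both diets *Tmem120a* was lower in knockout with a log2 fold change of -1.64 (SE 0.243, edgeR adjusted p = 0.00732). Within each diet it did not pass by edgeR (edgeR adjusted p = 0.173 on HFD and 0.929 on LFD) and did by DESeq2 (DESeq2 adjusted p = 3.16e-06 and 0.0025). Control mice held 57.9 to 131.9 TPM on LFD and 83.3 to 195.7 TPM on HFD. The levels of 2 knockout mice lay within these ranges, LFD mouse 7 at 74 TPM and HFD mouse 21 at 89.7 TPM. TPM is the relative abundance of a transcript, corrected for its length and scaled to the same total in every library, and was summed over the transcripts of a gene. Marker genes of skeletal muscle fibres were present in some libraries and scarce in others, with a summed level of their 14 genes from 10 to 61.8 TPM in control mice on HFD, from 49.3 to 1699 TPM in knockout mice on HFD, from 16.2 to 1171 TPM in knockout mice on LFD and from 11.2 to 3900 TPM in control mice on LFD, where mouse 5 held the highest value. The summed level of 12 lymphocyte markers ran from 8.17 to 219 TPM.

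The endothelial junction genes *Cdh5* and *Pecam1* were higher on HFD than on LFD, and for knockout against control none of the 9 genes passed the test on either diet. In a fit over all 20 libraries with genotype as a term, 2 of the 9 genes passed an adjusted p of 0.1 for the diet, both higher on HFD. *Cdh5* was 1.53-fold higher (log2 fold change 0.61, SE 0.134, edgeR adjusted p = 0.00296) and *Pecam1* 1.33-fold higher (log2 fold change 0.41, SE 0.111, edgeR adjusted p = 0.0125). This stands against 25.2% of all 15574 genes that passed in the same fit, 12.4% in the upward direction, so that the share of the 9 genes called was close to that of genes at large. *Tek* (log2 fold change 0.24, SE 0.101, edgeR adjusted p = 0.101) and *Vegfa* (log2 fold change 0.33, SE 0.14, edgeR adjusted p = 0.113) lay just outside the threshold. On the TPM scale limma called both of them as well (*Tek* 0.38, limma adjusted p = 0.0202, and *Vegfa* 0.46, limma adjusted p = 0.067), where it called 4693 of 15574 genes, 3510 of them higher. DESeq2 called *Vegfa* beside *Cdh5* and *Pecam1*, where it called 27.5% of all genes. The fit over both genotypes was added after the separate comparisons had been seen.

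Within control mice 1 of the 9 genes, *Cdh5*, passed for HFD against LFD, where 9.32% of all genes passed and 4.42% passed upward. In knockout mice 0 of the 9 genes passed, where 9.4% of all genes did, and *Cdh5* came closest (log2 fold change 0.56, SE 0.181, edgeR adjusted p = 0.101). By DESeq2 the calls were *Cdh5* and *Pecam1* in control mice, where it called 14.4% of all genes, and *Cdh5* in knockout mice, where it called 14.3%. A call in one genotype and not in the other is not a difference between genotypes. The test of that difference called 0 of the 9 genes, with log2 differences between the diet effects from -0.23 to 0.35. It called 0 of all 15574 genes by edgeR, while 560 had an unadjusted p under 0.05 and DESeq2 called 17, or 0.109%. None of the 9 was among them.

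For knockout against control 0 of the 9 genes passed on HFD, where 0.00657% of all genes passed, 0 passed on LFD, where 0.00636% passed, and 0 passed over both diets, where 0.0385% passed. At an unadjusted p under 0.05 the edgeR fit held 1 of the 9 genes on HFD, *Angpt1*, and 0 on LFD, beside 4.66% and 5.11% of all genes. DESeq2 called 0 of the 9 on HFD, on LFD and over both diets, beside 0.657%, 0.108% and 0.398% of all genes. The log2 fold changes lay between -0.23 and 0.32 on HFD and between -0.21 and 0.08 on LFD. Without knockout HFD mouse 21 the value of *Cdh5* on HFD went from -0.22 to -0.40 (edgeR adjusted p = 0.455). The genes called among all then went from 1 to 58 with none of the 9 among them. The comparisons share mice, since each group of 5 enters a genotype comparison and a diet comparison, and they are not independent of each other.

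**Figure D1:**
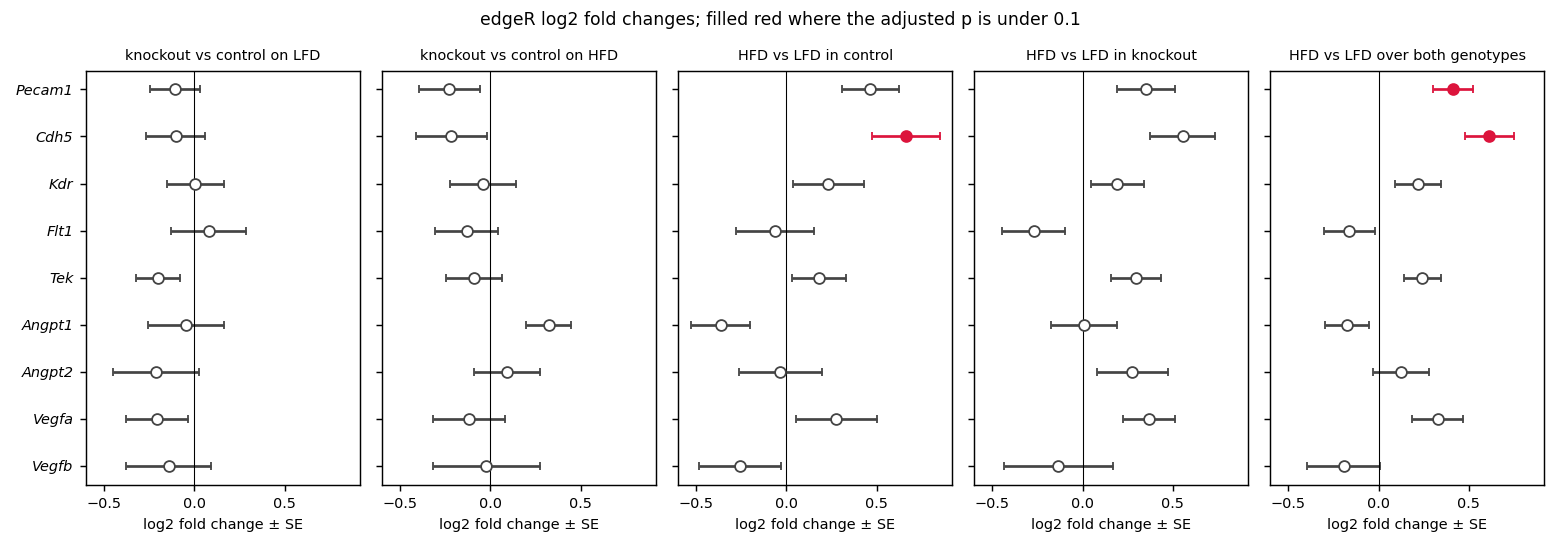
Log2 fold changes (x axis) of the 9 genes (y axis) in 5 comparisons, fitted by edgeR on estimated counts. Points are estimates, bars are 1 SE, and filled red points have an adjusted p under 0.1, which holds for *Cdh5* in control mice (0.66) and for *Cdh5* (0.61) and *Pecam1* (0.41) over both genotypes.

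The scale matters for the sign of small diet differences. On the TPM scale the median gene was higher on HFD by 0.13 log2 units in control mice and by 0.08 in knockout mice, while after TMM scaling of the counts it lay at -0.04 and 0.00. Of all genes called for diet in control mice, edgeR on counts put 676 higher and 751 lower, and limma on log2(TPM + 1) put 1791 higher and 348 lower. In knockout mice these splits were 714 higher and 762 lower by edgeR and 1009 higher and 525 lower by limma. Over both genotypes they were 1925 higher and 1998 lower by edgeR and 3510 higher and 1183 lower by limma. Differences in TPM between diets given below should be read against the shift of the median gene.

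*Cdh5* encodes VE-cadherin, the adhesion molecule of endothelial adherens junctions, and lies on chromosome 8 at 106625525 to 106668402 of the mouse assembly NCBIM37 (mm9), to which all gene positions here refer. Its level was 35.2, 35.1, 21.8, 15.9 and 34.5 TPM in the 5 control mice on LFD and 40.7, 57.1, 56.8, 36.3 and 61.1 TPM in the 5 control mice on HFD. Every control mouse on HFD lay above every control mouse on LFD, which was true in the upward direction of 8.32% of all genes. Groups that did not overlap in either direction were found for 9.78% of all genes. The group means were 28.5 ± 9.04 (SD, n = 5) and 50.4 ± 11.1 TPM (SD, n = 5), and the edgeR fold was 1.58 (log2 fold change 0.66, SE 0.188, edgeR adjusted p = 0.0683). A two-sided exact permutation test of log2(TPM + 1) gave p = 0.00794, the smallest that 5 mice against 5 allow.

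In knockout mice *Cdh5* stood at 29.6, 27.1, 33.1, 23.9 and 28.7 TPM on LFD and at 35.3, 40.2, 41.9, 32.4 and 68.6 TPM on HFD. Mouse 21 was the highest of all 20, and mouse 20 on HFD fell just under the highest mouse on LFD, so that these groups overlapped by 1 mouse. The exact permutation test gave p = 0.0159. Leaving out single mice moved the *Cdh5* log2 fold change between 0.56 and 0.76 in control mice and between 0.37 and 0.64 in knockout mice. The call in control mice was kept in 4 of 10 such fits and was lost without control LFD mouse 2, 3 or 5 or control HFD mouse 12, 13 or 15 (edgeR adjusted p from 0.103 to 0.155), and the lowest value in knockout mice was reached without mouse 21. Over both genotypes *Cdh5* and *Pecam1* passed in all 20 fits that left out 1 mouse, the one without control LFD mouse 5, which held the most muscle fibre RNA, included. Over the 20 libraries the summed muscle fibre markers had a Pearson r of -0.38 with the *Cdh5* level and -0.36 with the *Pecam1* level (-0.29 and -0.38 with each group centred on its mean). Whether muscle in the samples bears on the diet differences was not tested.

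*Pecam1* encodes CD31, an adhesion molecule that endothelial cells share with platelets and some leukocytes, and lies on chromosome 11 at 106515531 to 106611942. In control mice its level was 95, 79.4, 57.8, 42.6 and 67.3 TPM on LFD and 66.9, 132.6, 111.4, 96 and 127.8 TPM on HFD. Of the mice on HFD 4 of 5 lay above all mice on LFD, and mouse 11 lay among them (exact permutation p = 0.0476, edgeR log2 fold change 0.46, SE 0.157, edgeR adjusted p = 0.116). In knockout mice the level was 55.5, 53.4, 78.9, 78.7 and 99 TPM on LFD and 77.5, 113.9, 110.1, 89.3 and 115.9 TPM on HFD. There 3 of 5 mice on HFD lay above all mice on LFD (exact permutation p = 0.0556, edgeR log2 fold change 0.35, SE 0.159, edgeR adjusted p = 0.245). Of the *Pecam1* TPM a mean of 36.5% came from Pecam1-006, a transcript without a coding sequence that took 9.03% of the estimated counts of the gene, so that the TPM level of *Pecam1* partly reflects its annotation. Markers of platelets and megakaryocytes, which also carry *Pecam1*, summed to between 42.2 and 59.3 TPM in control mice on LFD and between 49.7 and 59.8 TPM on HFD.

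**Figure D2:**
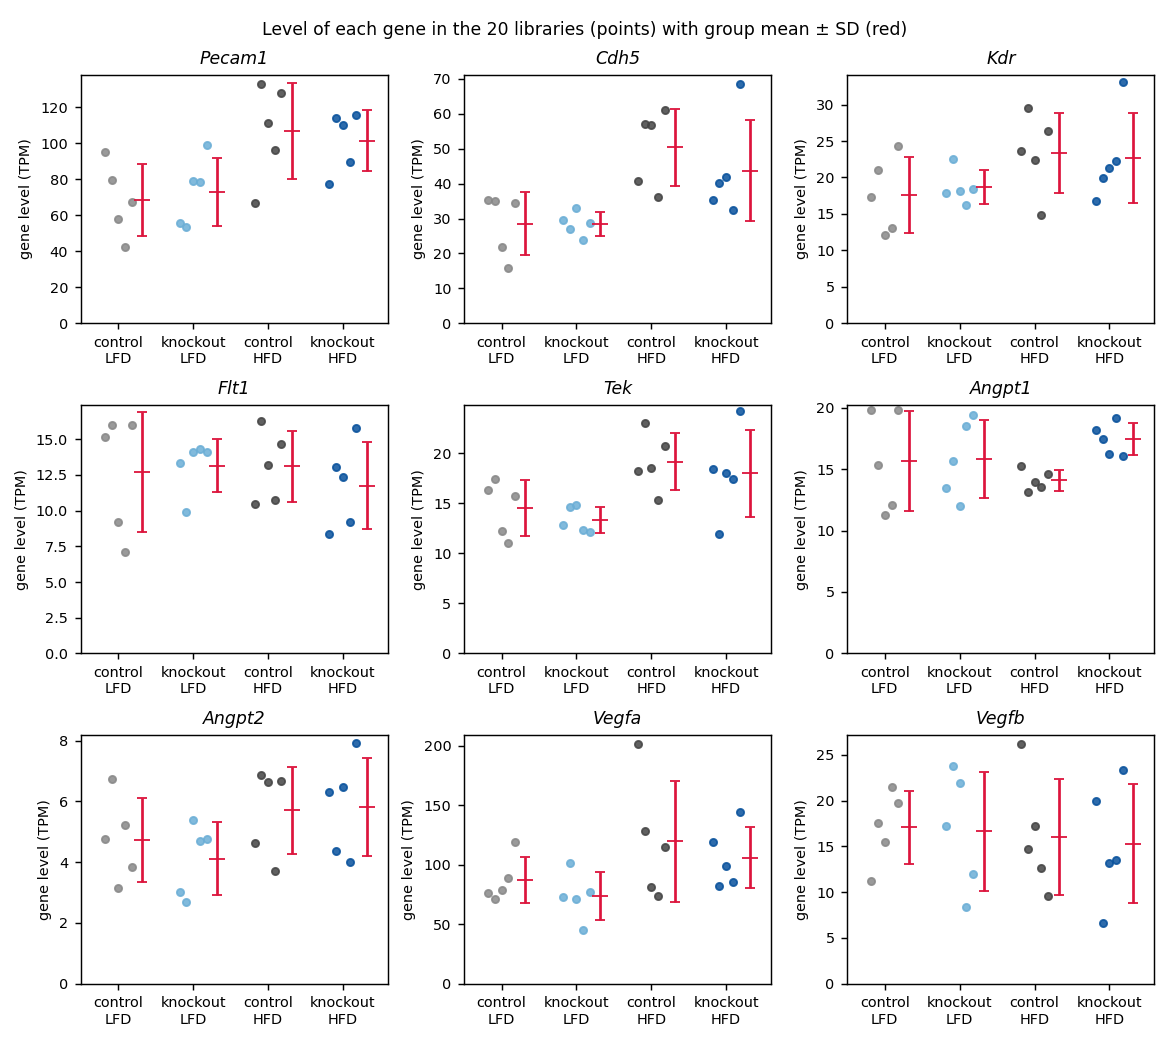
Level of each of the 9 genes in TPM (y axis, from 0) in the 4 groups of 5 mice (x axis). Points are mice, and red bars give the group mean ± SD. *Cdh5* in the 5 control mice on HFD (36.3 to 61.1 TPM) lay above all 5 control mice on LFD (15.9 to 35.2 TPM), and *Angpt1* on HFD was higher in all 5 knockout mice (16.1 to 19.1 TPM) than in the control mice (13.1 to 15.3 TPM).

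*Kdr* encodes VEGFR2, the main signalling receptor for VEGF-A, and lies on chromosome 5 at 76328852 to 76374483. On LFD it averaged 17.6 ± 5.21 TPM in control mice and 18.7 ± 2.3 TPM in knockout mice, and 23.4 ± 5.49 and 22.7 ± 6.18 TPM on HFD (SD, n = 5 each). On HFD 2 of 5 control mice and 1 of 5 knockout mice lay above all mice of their genotype on LFD, and over both genotypes the diet difference did not pass (log2 fold change 0.22, SE 0.128, edgeR adjusted p = 0.263). Kdr-001, which codes for 1345 residues, took a mean of 92.5% ± 3.24 (SD, n = 20) of the TPM of the gene.

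*Flt1* encodes VEGFR1, which binds VEGF-A and VEGF-B, and lies on chromosome 5 at 148373180 to 148537587. Its level was 12.7 ± 4.21, 13.2 ± 1.84, 13.1 ± 2.5 and 11.8 ± 3.02 TPM (SD, n = 5 each) in control LFD, knockout LFD, control HFD and knockout HFD mice. All these groups overlapped, and the diet difference over both genotypes had a log2 fold change of -0.16 (SE 0.142, edgeR adjusted p = 0.479), so that *Flt1* was the receptor without an upward estimate on counts. On the TPM scale the estimate in control mice was 0.08, less than the shift of the median gene.

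*Flt1* is transcribed into a long RNA for the membrane receptor and a shorter one for a secreted form that holds the ligand binding part alone and captures VEGF. The coding sequences of Flt1-001 (1333 residues) and Flt1-002 (688 residues) are identical until Flt1-002 reads on into the intron behind the shared exon and ends there. The junctions, from the GENCODE vM1 transcripts, are shown because the 2 coding sequences part there. The estimates of the 2 transcripts use reads over their whole length, 6895 bases for Flt1-001 and 6292 bases for Flt1-002, and not these junctions alone. The last 20 shared bases stand in lower case and the next 95 bases of each in capitals. These lie at chr5:148450706-148450800 for Flt1-002 and chr5:148446005-148446099 for Flt1-001, both on the minus strand.
Flt1-002: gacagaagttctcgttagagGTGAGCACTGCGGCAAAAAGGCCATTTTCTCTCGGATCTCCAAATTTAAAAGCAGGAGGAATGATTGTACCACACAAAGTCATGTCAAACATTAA
Flt1-001: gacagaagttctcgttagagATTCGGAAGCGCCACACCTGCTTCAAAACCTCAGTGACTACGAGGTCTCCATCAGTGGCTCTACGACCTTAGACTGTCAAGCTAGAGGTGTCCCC

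Flt1-001 took a mean of 59.8% ± 4.51 and Flt1-002 a mean of 37% ± 5.73 of the *Flt1* TPM (SD, n = 20). The share of Flt1-002 ran from 28.5% to 48.1% over the mice and averaged 35.1% ± 5.33 in control LFD, 35.7% ± 5.29 in knockout LFD, 38.3% ± 7.57 in control HFD and 38.9% ± 5.37 in knockout HFD mice (SD, n = 5 each). In the 4 comparisons tested the differences were at most 3.25 percentage points and smaller than the spread within groups (exact permutation p from 0.389 to 0.865). The share of Flt1-002 in the estimated counts was 35%, close to that in TPM. Flt1-002 ends within an intron of Flt1-001, and unspliced *Flt1* RNA holds the bases of that intron too. Whether such RNA adds to the share of Flt1-002 was not tested. The share is therefore that of the annotated transcript and not a measure of the secreted form alone.

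The 3 receptor genes with a RefSeq sequence of their start site are *Kdr*, *Flt1* and *Tek*. The 250 bases before each start are shown, from assembly GRCm38.p6, because these genes are among the endothelial genes compared across mice below. Of their pairs that of *Flt1* and *Tek* did not pass there (r = 0.35, adjusted permutation p = 0.231). The motifs AGGAAG, a site of ETS factors, GGGCGG, a site of SP factors, and AGATAA, a site of GATA factors, were searched on both strands, and matches to AGGAAG or GGGCGG stand in capitals. The *Kdr* window is chr5:75978456-75978705 (minus strand), the *Flt1* window chr5:147726012-147726261 (minus strand) and the *Tek* window chr4:94739039-94739288 (plus strand).
Kdr: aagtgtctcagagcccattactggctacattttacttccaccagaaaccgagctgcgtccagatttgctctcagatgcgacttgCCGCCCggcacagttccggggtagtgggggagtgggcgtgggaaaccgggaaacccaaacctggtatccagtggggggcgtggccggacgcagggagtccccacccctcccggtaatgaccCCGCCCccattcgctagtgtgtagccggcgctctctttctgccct
Flt1: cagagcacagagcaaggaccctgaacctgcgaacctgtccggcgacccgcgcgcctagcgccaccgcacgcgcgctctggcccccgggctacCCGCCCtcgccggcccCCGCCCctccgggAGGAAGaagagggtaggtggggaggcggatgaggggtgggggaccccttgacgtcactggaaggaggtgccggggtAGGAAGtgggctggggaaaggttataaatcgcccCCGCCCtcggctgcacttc
Tek: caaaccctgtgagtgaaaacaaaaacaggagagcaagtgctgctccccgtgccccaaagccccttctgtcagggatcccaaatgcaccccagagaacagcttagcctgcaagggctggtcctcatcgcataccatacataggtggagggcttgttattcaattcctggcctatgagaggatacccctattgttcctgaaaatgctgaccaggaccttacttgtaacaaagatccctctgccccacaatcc

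*Flt1* held 2 matches to AGGAAG and 3 to GGGCGG, *Kdr* held 2 to GGGCGG, and *Tek* held none. Windows of 2 ligand genes, not printed, also held GGGCGG, with 2 and 1 matches in the 2 windows of *Vegfa* and 4 in that of *Vegfb*. The first *Vegfa* window held 1 match to AGATAA. Of 32851 windows of the same length before gene starts, 29.5% held AGGAAG, 32.7% held GGGCGG and 9.99% held AGATAA, which none of the 3 windows held. A match describes the letters of the window, and no binding was measured in these samples.

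*Tek* encodes TIE2, the receptor of the angiopoietins, and lies on chromosome 4 at 94405980 to 94541667. In control mice it stood at 16.3, 17.5, 12.3, 11 and 15.8 TPM on LFD and at 18.3, 23.1, 18.6, 15.3 and 20.7 TPM on HFD. On HFD 4 of 5 control mice lay above all control mice on LFD (exact permutation p = 0.0397), while the edgeR log2 fold change was 0.18 (SE 0.147, edgeR adjusted p = 0.541). In knockout mice *Tek* averaged 13.3 ± 1.27 TPM on LFD and 18 ± 4.36 TPM on HFD (SD, n = 5 each), where mouse 18 was the lowest of both groups at 11.9 TPM and the other 4 lay above all mice on LFD (edgeR log2 fold change 0.30, SE 0.138, edgeR adjusted p = 0.262).

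*Angpt1* encodes the ligand that activates TIE2 and is made mainly by mural and stromal cells, and it lies on chromosome 15 at 42256273 to 42508523. On HFD its level was 15.3, 13.1, 14, 13.6 and 14.6 TPM in control mice and 18.2, 17.4, 16.2, 19.1 and 16.1 TPM in knockout mice. All 5 knockout mice lay above all 5 control mice, as did 0.538% of all genes in that direction, and 0.69% of genes had groups that did not overlap in either direction. The means were 14.1 ± 0.844 and 17.4 ± 1.3 TPM (SD, n = 5 each), 1.24-fold apart (exact permutation p = 0.00794, the smallest possible). The edgeR log2 fold change was 0.32 (SE 0.123, unadjusted p = 0.022, edgeR adjusted p = 0.999) and stayed between 0.27 and 0.40 when any mouse was left out, and DESeq2 gave an adjusted p of 0.724. Over the genes tested the difference therefore did not pass, and it was 1 of 36 exact tests of levels, of which 5 gave p under 0.05. On LFD the control values of 19.8, 15.3, 11.2, 12.1 and 19.8 TPM and the knockout values of 13.5, 15.6, 12, 18.5 and 19.4 TPM covered the same range (exact permutation p = 0.905). The difference between the diets in the genotype effect was a log2 value of 0.35 (SE 0.245, edgeR adjusted p = 0.9999). The muscle fibre markers also differed between the 2 groups on HFD, with 14 of 14 estimates higher in knockout and 0 past the test, and over the 20 libraries the *Angpt1* level and their summed level had a Pearson r of 0.33 (0.10 after each group was centred on its mean). Whether muscle in the samples bears on the *Angpt1* difference was not tested.

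*Angpt2* encodes the second angiopoietin, which is released by endothelial cells and counters *Angpt1* at TIE2 in many settings, and lies on chromosome 8 at 18690263 to 18741562. It was the least abundant of the 9 genes, with 4.73 ± 1.37, 4.12 ± 1.19, 5.7 ± 1.44 and 5.81 ± 1.62 TPM (SD, n = 5 each) in control LFD, knockout LFD, control HFD and knockout HFD mice. All groups overlapped, and over both genotypes the diet log2 fold change was 0.13 (SE 0.154, edgeR adjusted p = 0.634). In control mice the sign depended on the scale, with a log2 fold change of -0.03 on counts and 0.23 on TPM. Angpt2-002, a transcript without a coding sequence, took a mean of 21.8% of the *Angpt2* TPM, from 0% to 48.9% over the mice. It took 5.23% of the estimated counts. The TPM level of *Angpt2*, with the ratio and correlations taken from it, therefore partly reflects its annotation. The ratio of *Angpt2* to *Angpt1* was 0.317 ± 0.113 in control LFD, 0.269 ± 0.106 in knockout LFD, 0.407 ± 0.111 in control HFD and 0.339 ± 0.114 in knockout HFD mice (SD, n = 5 each), and these ranges overlapped.

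*Vegfa* encodes the main growth factor for blood vessels, which adipocytes and other cells release, and lies on chromosome 17 at 46153942 to 46169326. In control mice its level was 76.4, 71.6, 79, 89.2 and 119.1 TPM on LFD and 201.3, 128.1, 80.8, 74.1 and 115.1 TPM on HFD. Mouse 11 on HFD was the highest of all and mouse 14 on HFD fell among the lowest, so that the groups overlapped (edgeR log2 fold change 0.28, SE 0.223, edgeR adjusted p = 0.535). In knockout mice it stood at 73.1, 101.8, 71.1, 45.2 and 77 TPM on LFD and at 118.8, 82.3, 98.7, 85.4 and 144.4 TPM on HFD. There 2 of 5 mice on HFD lay above all mice on LFD (exact permutation p = 0.0556, edgeR log2 fold change 0.37, SE 0.144, edgeR adjusted p = 0.173).

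*Vegfa* RNA is spliced into forms that differ in exons for binding to heparin and matrix. Vegfa-203 holds both of these coding exons, of 132 and 72 bases, Vegfa-201 holds the exon of 132 bases at chr17:46157940-46158071, Vegfa-009 holds the exon of 72 bases at chr17:46159226-46159297, and Vegfa-008 holds neither, all on the minus strand. They are printed because the transcript with most of the *Vegfa* TPM, Vegfa-009, is told apart by these exons, which stand in capitals between 20 bases of the shared exons.
Vegfa-203: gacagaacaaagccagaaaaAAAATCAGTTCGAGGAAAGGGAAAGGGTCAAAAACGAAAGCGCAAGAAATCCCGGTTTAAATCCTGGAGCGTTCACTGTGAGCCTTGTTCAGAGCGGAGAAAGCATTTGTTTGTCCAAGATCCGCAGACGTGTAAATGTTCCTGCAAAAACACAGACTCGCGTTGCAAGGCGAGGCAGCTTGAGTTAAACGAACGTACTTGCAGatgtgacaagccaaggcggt
Vegfa-201: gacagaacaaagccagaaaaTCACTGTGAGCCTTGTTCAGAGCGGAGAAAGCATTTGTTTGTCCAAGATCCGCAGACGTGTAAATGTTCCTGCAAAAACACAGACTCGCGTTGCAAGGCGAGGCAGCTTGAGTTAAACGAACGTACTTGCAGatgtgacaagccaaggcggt
Vegfa-009: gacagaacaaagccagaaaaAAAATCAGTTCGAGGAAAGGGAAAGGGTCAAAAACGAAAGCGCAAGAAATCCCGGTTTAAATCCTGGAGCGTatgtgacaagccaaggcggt
Vegfa-008: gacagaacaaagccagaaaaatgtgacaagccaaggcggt

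Vegfa-009 took 58.3% ± 4.38 of the *Vegfa* TPM but 14% of its estimated counts, since it is annotated with 513 bases of coding sequence alone and TPM divides by length. Vegfa-001, which codes for 368 residues and is not among the transcripts printed, took 10.7% of the TPM. Its share of the counts, 36.7%, was the largest of all *Vegfa* transcripts, so that the form with most of the RNA depends on the scale. Which of the printed exons Vegfa-001 holds was not looked at. The level of *Vegfa* in TPM, and its place above the other 8 genes, therefore leans on how the short Vegfa-009 is annotated. In its share of counts Vegfa-009 averaged 15.1% ± 1.33 in control and 12.6% ± 1.04 in knockout mice on LFD (SD, n = 5 each), and these groups did not overlap (exact permutation p = 0.00794). In its share of TPM they did overlap, at 59% ± 2.17 and 55.6% ± 5.69 (exact permutation p = 0.302). Of all 28 tests of transcript shares in TPM 0 gave an exact permutation p under 0.05, and of the 28 in counts this was the only one.

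*Vegfb* encodes a ligand of VEGFR1 linked to fatty acid uptake by endothelium, and lies on chromosome 19 at 7056963 to 7062141. Its level averaged 17.1 ± 3.99, 16.6 ± 6.49, 16.1 ± 6.32 and 15.3 ± 6.51 TPM (SD, n = 5 each) in control LFD, knockout LFD, control HFD and knockout HFD mice, and ran from 6.6 to 23.3 TPM within the last group alone. No comparison of *Vegfb* passed, with a diet log2 fold change of -0.19 over both genotypes (SE 0.204, edgeR adjusted p = 0.57). The ratio of *Vegfa* to *Vegfb* in TPM was 5.23 ± 1.19 and 4.72 ± 1.22 on LFD in control and knockout mice and 7.8 ± 2.83 and 7.69 ± 2.74 on HFD (SD, n = 5 each), with overlapping ranges.

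The *Vegfb* transcripts code for a form that stays near the cell, Vegfb-002 (188 residues), and a form that diffuses, Vegfb-001 (207 residues). They are shown because nearly all *Vegfb* RNA was assigned to one of them, with capitals for the 101 bases that Vegfb-001 alone holds at chr19:7059986-7060086 on the minus strand.
Vegfb-001: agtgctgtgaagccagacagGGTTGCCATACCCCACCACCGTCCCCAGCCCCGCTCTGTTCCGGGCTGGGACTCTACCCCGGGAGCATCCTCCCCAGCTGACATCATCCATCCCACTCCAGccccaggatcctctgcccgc
Vegfb-002: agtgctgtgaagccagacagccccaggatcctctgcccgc

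Vegfb-002 took 85.7% ± 6.38 and Vegfb-001 12.5% ± 5.81 of the *Vegfb* TPM (SD, n = 20). The mean share of Vegfb-002 lay between 84.4% and 86.9% in the 4 groups, and the largest difference in the 4 comparisons tested was 1.48 percentage points (exact permutation p from 0.714 to 0.833).

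**Figure D3:**
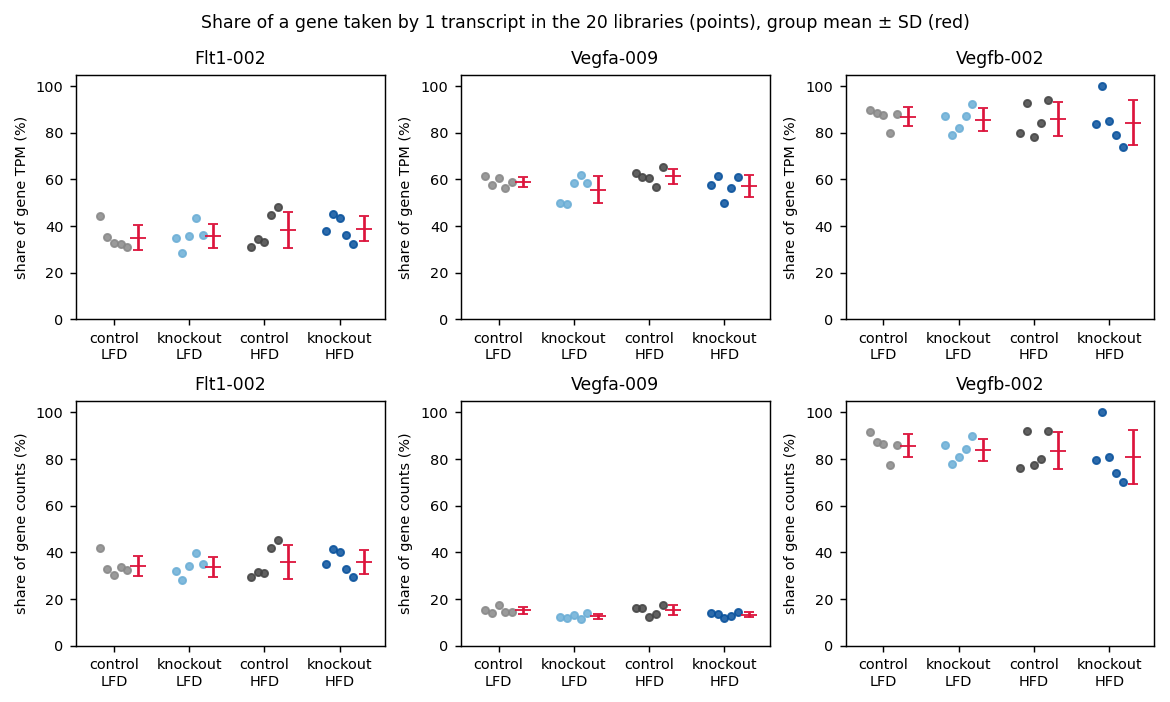
Share of the gene taken by Flt1-002, Vegfa-009 and Vegfb-002 in percent (y axis, from 0) by group of 5 mice (x axis), from TPM in the upper row and from estimated counts in the lower row. Points are mice and red bars the mean ± SD, and Vegfa-009 falls from 58.3% of TPM to 14% of counts while Flt1-002 stays at 37% and 35%.

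By mean TPM over all 20 mice the order of the genes was *Vegfa* (96.6 ± 34.3), *Pecam1* (87.5 ± 25.9), *Cdh5* (37.8 ± 13.6), *Kdr* (20.6 ± 5.27), *Vegfb* (16.3 ± 5.48), *Tek* (16.3 ± 3.71), *Angpt1* (15.7 ± 2.76), *Flt1* (12.7 ± 2.83) and *Angpt2* (5.09 ± 1.48), each with its SD. The step from *Pecam1* to *Cdh5*, that from *Cdh5* to *Kdr*, that from *Angpt1* to *Flt1* and that from *Flt1* to *Angpt2* were larger than the SD of either neighbour, and the other neighbours differed by less than the larger of their SDs. *Angpt1* varied least between mice, with a coefficient of variation of 17.5%, and *Cdh5* most, with 36.1%.

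Across the 20 mice the levels of the endothelial genes varied together. Among *Pecam1*, *Cdh5*, *Kdr*, *Flt1* and *Tek* 9 of 10 pairs had a permutation p under 0.05 after adjustment over all 36 pairs of the 9 genes, with Pearson r of log2(TPM + 1) from 0.35 to 0.85 in the 10 pairs. The pair that did not pass was *Flt1* and *Tek* (r = 0.35, adjusted permutation p = 0.231). *Cdh5* and *Tek* were the closest pair (r = 0.85, Spearman rho = 0.82, adjusted permutation p of 0.00018 and 0.00072, r = 0.78 without the 2 mice farthest from the median *Cdh5* level). *Pecam1* and *Cdh5* followed (r = 0.82, rho = 0.78, adjusted permutation p of 0.00018 and 0.00198, r = 0.74 without 2 mice), then *Cdh5* and *Kdr* (r = 0.81, rho = 0.65, adjusted permutation p of 0.00024 and 0.0161, r = 0.71 without 2 mice). With each group centred on its own mean the r of these 10 pairs ran from 0.34 to 0.88, so that the shared movement was also present among mice of one group. After centring *Flt1* came closer to *Cdh5* (0.88 centred, 0.57 before) and to *Pecam1* (0.82 centred, 0.58 before). By Spearman's rho 4 of the 10 pairs passed, those of *Cdh5* with *Pecam1*, *Kdr* and *Tek* and that of *Kdr* with *Tek*. The pairs of *Flt1* with *Pecam1* and *Cdh5* fell to r of 0.36 and 0.34 without 2 mice and so rested in part on them. Control LFD mouse 4 was the lowest of 20 for *Pecam1*, *Cdh5*, *Tek* and *Flt1*, and knockout HFD mouse 21 was the highest for *Cdh5*, *Kdr*, *Tek* and *Angpt2*. In RNA from whole tissue fewer endothelial cells and less RNA of these genes per cell cannot be told apart.

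The ligands behaved differently from one another. *Angpt2* moved with *Tek* (r = 0.65, rho = 0.65, adjusted permutation p of 0.0177 and 0.0161, r = 0.66 without 2 mice), and with *Pecam1* (r = 0.62, rho = 0.63, adjusted permutation p of 0.0189 and 0.0181, r = 0.68 without 2 mice) and *Cdh5* (r = 0.61, rho = 0.61, adjusted permutation p of 0.0189 and 0.0225, r = 0.70 without 2 mice). *Vegfa* moved with *Tek* (r = 0.61, rho = 0.54, adjusted permutation p of 0.0189 and 0.0619, r = 0.60 without 2 mice) and *Kdr* (r = 0.60, rho = 0.66, adjusted permutation p of 0.0198 and 0.0161, r = 0.55 without 2 mice). The permutations took all 20 mice without regard to group. With each group centred on its mean r was 0.52, 0.51 and 0.50 for *Angpt2* with *Tek*, *Pecam1* and *Cdh5*. For *Vegfa* the centred r was 0.40 with *Tek* and 0.52 with *Kdr*. *Angpt1* showed no pair under 0.05, with r between -0.32 and 0.26. *Vegfa* and *Vegfb* had r = 0.51 (rho = 0.39, adjusted permutation p of 0.0506 and 0.169), which was 0.24 without the 2 mice farthest from the median *Vegfa* level and 0.68 with each group centred on its mean. *Vegfb* and *Pecam1* ran in opposite directions short of the threshold (r = -0.51, rho = -0.52, adjusted permutation p of 0.0506 and 0.0629, r = -0.40 without 2 mice). All values of a mouse come from 1 library and its composition, which the pairs share.

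**Figure D4:**
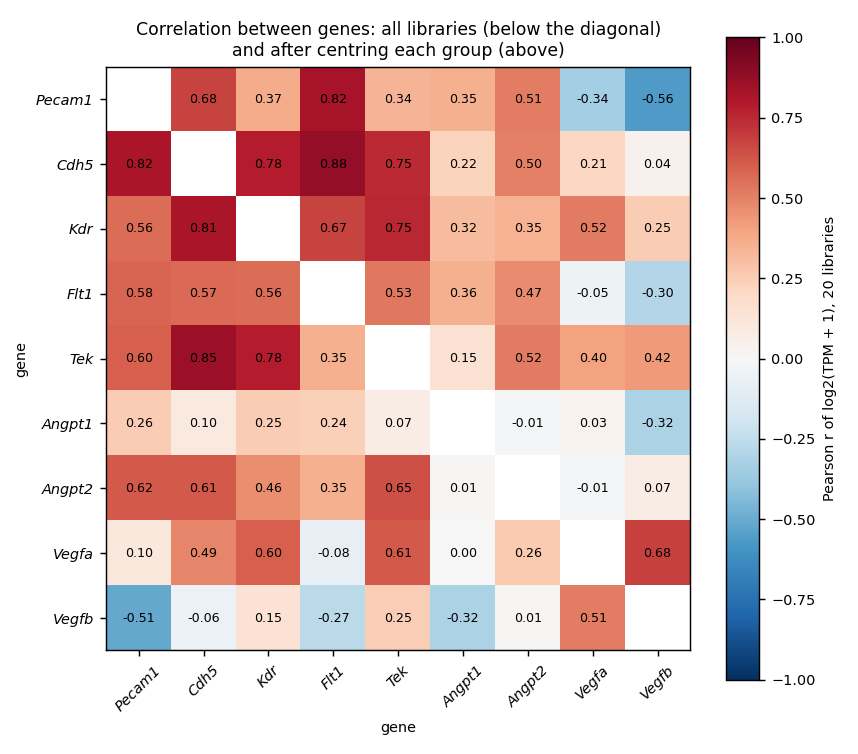
Pearson r between the log2(TPM + 1) of each pair of the 9 genes over 20 mice (below the diagonal) and after each group was centred on its mean (above the diagonal), coloured from -1 to 1. *Pecam1*, *Cdh5*, *Kdr*, *Flt1* and *Tek* form a block of r from 0.35 to 0.85, and *Angpt1* and *Vegfb* stand outside it.

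Among 13976 genes that averaged 1 TPM or more, those whose levels over the 20 mice were most like each of the 9 genes were listed as a description. *Cdh5* was followed most closely by *Mmrn2*, an extracellular protein of endothelium (r = 0.96), *Pecam1* by *Meox2*, a homeobox factor of capillary endothelium (r = 0.96), *Tek* by *Crip2* (r = 0.91), *Kdr* by *Fam101b* (r = 0.88) and *Flt1* by *Rps6ka3* (r = 0.90). Next for *Flt1* came *Larp1* (r = 0.89) and then *Ptprb*, an endothelial phosphatase that acts on TIE2 (r = 0.88). Next for *Pecam1* came *Ripk1* and *Cd300ld* (r = 0.94 each). Genes close to *Vegfa* included *Higd1a*, a mitochondrial protein (r = 0.90), and *Ucp3*, an uncoupling protein (r = 0.89), and *Vegfb* was followed by *Acox3*, a peroxisomal oxidase (r = 0.95). For *Angpt1* and *Angpt2* the closest genes were *Akap8l* (r = 0.81) and *Brms1l* (r = 0.74). No endothelial marker from the lists was among the genes named here for the ligands, and none was among those named for *Kdr* and *Tek*. For *Kdr* and *Tek* the closest gene alone is named, and the lists do not hold all genes of endothelium.

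The rest of the endothelium was read from 28 further endothelial markers, all of them tested. For HFD against LFD over both genotypes 12 were called higher and 1 lower, beside 12.4% and 12.8% of all genes. The median log2 fold change was 0.40 beside -0.03 over all genes tested. The calls included *Cd93* (1.27, SE 0.251, edgeR adjusted p = 0.00127) and *Aplnr*, the apelin receptor (1.19, SE 0.169, edgeR adjusted p = 6.14e-05). *Erg*, a transcription factor of endothelial identity (0.86, SE 0.181, edgeR adjusted p = 0.00215), and *Tie1*, the partner receptor of TIE2 (0.59, SE 0.163, edgeR adjusted p = 0.015), were also called. *Vwf*, a clotting protein, was the marker called lower (-0.40, SE 0.137, edgeR adjusted p = 0.0471). In control mice 6 of 28 were called higher and 0 lower (median 0.36), beside 4.42% and 4.9% of all genes. In knockout mice 6 were called higher and 1 lower (median 0.39), beside 4.55% and 4.85% of all genes. The summed level of the 28 markers was 460 ± 91.9 and 454 ± 37.4 TPM on LFD and 696 ± 85.5 and 662 ± 107 TPM on HFD in control and knockout mice (SD, n = 5 each). *Cd34* alone averaged 140 TPM over the 20 mice and *Cd93* 44.7 TPM. Whether their RNA, or the rise of the sum, came from endothelium alone was not tested. For knockout against control 0 of 28 were called on either diet, with medians of -0.17 on HFD and -0.09 on LFD.

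Genes of vessel subtypes were read in the same fit over both genotypes, where 12.4% of all genes were called higher and 12.8% lower. Of 8 genes of capillaries and lipid handling 4 were called higher and 0 lower (median log2 fold change 0.43), among them *Gpihbp1*, which anchors lipoprotein lipase to capillaries (0.81, SE 0.12, edgeR adjusted p = 8.68e-05), and *Tcf15*, a factor of capillary endothelium (1.06, SE 0.236, edgeR adjusted p = 0.00331). *Cd36*, a fatty acid transporter that adipocytes also express, as they do *Lpl* and *Aqp7* of that list, was higher as well (0.57, SE 0.156, edgeR adjusted p = 0.0138). Of 8 arterial genes 3 were called higher and 0 lower (median 0.42), led by the gap junction gene *Gja5* (1.12, SE 0.193, edgeR adjusted p = 0.000376). Of 6 venous genes 5 were tested, and 0 were called higher and 1 lower, *Nr2f2*, a factor of venous identity that other cells of fat also express (-0.76, SE 0.164, edgeR adjusted p = 0.00266). Of 7 lymphatic genes 5 were tested, since others were at or near 0, and 0 were called higher and 3 lower, *Reln* (-1.47, SE 0.243, edgeR adjusted p = 0.00025), *Lyve1*, which macrophages can also carry (-0.50, SE 0.182, edgeR adjusted p = 0.0614), and *Flt4*, the receptor of lymphatic VEGF ligands (-0.40, SE 0.138, edgeR adjusted p = 0.0477). The difference between lists was not tested.

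Genes of sprouting, mural cells and other ligands were described in the same way, and all counts of calls here stand beside 12.4% of all genes higher and 12.8% lower. Of 11 genes of sprouting and activation 3 were called higher and 0 lower, and *Apln*, which encodes the apelin ligand, rose most (2.39, SE 0.274, edgeR adjusted p = 7.05e-06). Apelin is also made by adipocytes, so that its cell of origin is not given by these data. Of 12 genes of the mural cell list 4 were called higher and 1 lower, with 7 of 12 estimates above 0 and a median log2 fold change of 0.13. The pericyte genes *Rgs5* (0.92, SE 0.2, edgeR adjusted p = 0.00277) and *Kcnj8* (0.84, SE 0.145, edgeR adjusted p = 0.000378) were higher and *Notch3* was lower (-0.49, SE 0.128, edgeR adjusted p = 0.0107). The mural cell list was not checked to be of mural cells alone, and it shares *Pdgfb* with the list of other ligands. Of 14 other ligands that promote or restrain vessel growth 4 were called higher and 3 lower, with the growth factor gene *Fgf1* (0.92, SE 0.197, edgeR adjusted p = 0.00245) and the inhibitor genes *Serpinf1* (0.91, SE 0.106, edgeR adjusted p = 7.56e-06) and *Vash1* (0.92, SE 0.175, edgeR adjusted p = 0.000909) higher. *Hgf*, a growth factor gene, was lower (-0.41, SE 0.112, edgeR adjusted p = 0.0139). Of 17 genes of the hypoxia response 15 were tested, and 5 were called higher and 3 lower with a median of 0.04. Higher among the targets of HIF were *Adm* (0.95, SE 0.163, edgeR adjusted p = 0.000342), *Bnip3* (0.58, SE 0.143, edgeR adjusted p = 0.00712) and *Ndrg1* (0.30, SE 0.12, edgeR adjusted p = 0.0857). *Hif1a* (0.78, SE 0.124, edgeR adjusted p = 0.000159) and *Vhl*, which marks the HIF proteins for degradation (0.90, SE 0.105, edgeR adjusted p = 8.09e-06), were also higher. *Pdk1* (-0.96, SE 0.158, edgeR adjusted p = 0.00025) and *Egln3* (-1.11, SE 0.24, edgeR adjusted p = 0.00277), which are targets of HIF too, and *Epas1*, which encodes HIF-2 alpha (-0.51, SE 0.128, edgeR adjusted p = 0.00815), were lower. Of 10 genes of the VEGF family and its receptors, 4 of the 9 included, only *Flt4* was called, and of 7 genes of the angiopoietin and TIE system, of which 6 were tested and 3 are among the 9, *Tie1* was called higher and *Svep1*, an extracellular protein that binds TIE1, lower (-0.49, SE 0.174, edgeR adjusted p = 0.0539).

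**Figure D5:**
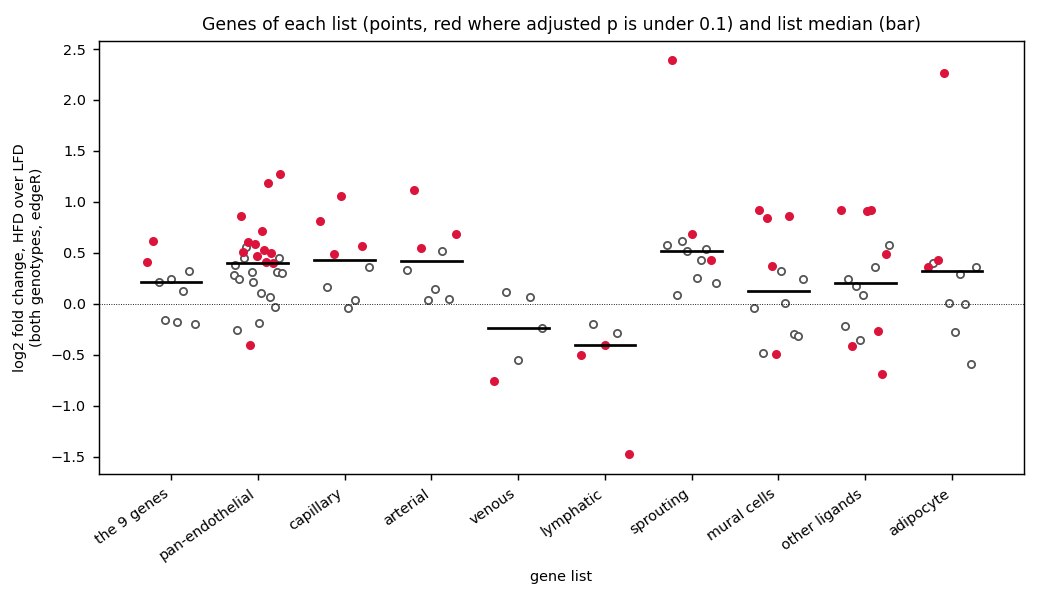
Log2 fold change for HFD over LFD over both genotypes (y axis, edgeR) of the 9 genes and of the genes of 9 lists (x axis). Points are genes, red where the adjusted p is under 0.1, and bars are list medians, which were 0.40 for pan-endothelial markers, 0.43 for capillary and 0.42 for arterial genes, and -0.24 for venous and -0.40 for lymphatic genes.

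Markers of other cells moved with diet as well, and their part in the differences above was not tested. The summed level of 10 adipocyte markers was 22075 ± 2449 and 18508 ± 2433 TPM on LFD and 27767 ± 3897 and 26842 ± 4519 TPM on HFD in control and knockout mice (SD, n = 5 each), with ranges of 18260 to 23938, 16132 to 21597, 23220 to 33456 and 21330 to 31613 TPM in the same order. Of the 10 markers 3 were called higher and 0 lower over both genotypes, beside 12.4% and 12.8% of all genes. *Lep* (2.26, SE 0.267, edgeR adjusted p = 9.22e-06) had the widest difference. Of 14 muscle fibre markers 11 were called lower on HFD in control mice (median log2 fold change -5.58), where 4.9% of all genes were. In knockout mice 0 were called lower (median 0.60), where 4.85% of all genes were. Of 7 macrophage markers 2 were called higher and 0 lower over both genotypes, and their summed level ran from 206 to 298 and from 199 to 288 TPM on LFD and from 330 to 422 and from 260 to 438 TPM on HFD in control and knockout mice. Of 12 lymphocyte markers 0 were called, of 9 tested markers of skin and mammary epithelium 0 were called higher and 1 lower, and of 3 tested platelet markers 0 were called higher and 1 lower. The *Vegfa* level followed the summed adipocyte markers over the 20 mice with a Pearson r of 0.80 (0.71 with each group centred), while the *Cdh5* level followed the summed mural cell markers with r = 0.92 (0.83 centred) and the adipocyte markers with r = 0.57 (0.13 centred). The summed macrophage markers had r = 0.85 with *Cdh5* (0.67 centred) and r = 0.69 with *Pecam1* (0.45 centred). *Flt1* and *Angpt1* followed the adipocyte markers with r of -0.12 and 0.10. These values describe libraries that share their composition, and no test was made of them.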

How the data were processed

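Inguinal fat of 20 mice was sequenced as 150 bp read pairs from total RNA depleted of ribosomal RNA, with strand kept. The authors quantified transcripts with Salmon (0.13.1, from the submitters' processing notes, which also name STAR 2.5.3) on the Ensembl cDNA and ncRNA of NCBIM37. They deposited estimated counts without normalization between libraries. They also deposited TPM, scaled within each library. Of 96533 transcripts 97.7% were summed to genes with GENCODE vM1, and unmatched transcripts held 0.377% to 0.581% of a library. The 10 most abundant genes held 23.8% to 35.7%. The methods use tximport and DESeq2.

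Counts were rounded and fitted with edgeR (4.0.16, TMM, quasi-likelihood) on genes that averaged 0.5 TPM or more in the compared libraries, and p-values were adjusted over all of them (Benjamini-Hochberg, call at 0.1, as in the methods). For single values the two-sided exact permutation test took log2(TPM + 1) over all 252 assignments, and correlations with 100000 permutations. Fits were tested on simulated data. Alternatives were DESeq2 1.42.0, limma 3.58.1, other scaling, filters, pseudocounts and length offsets, and each library left out. Fits over both genotypes or both diets and TPM scaled by TMM factors of the TPM were added after seeing the data. Python 3.11.15 and R 4.3.3 were used. The genes named are the 9 genes, *Tmem120a*, genes among the 3 most correlated with each of the 9 (1 is not reported here), and members of 17 lists, of which those given with values were picked among the called genes. The lists, like the 9 genes, were chosen with earlier results of these data known. The labels give no batch, and they do not say more of the replicates than that they are separate mice. Promoter sequences of *Pecam1*, *Cdh5*, *Angpt1* and *Angpt2* and protein sequences were not used here.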

Additional observations from a re-analysis of the deposited data

Results flagged for a closer look

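In 4 of 64 groups of 5 mice the highest or lowest value stood apart from the others by Dixon's test, and chance alone flags about 1 in 20 groups. *Cdh5* reached 68.6 TPM in knockout HFD mouse 21, above the next mouse of its group at 41.9 TPM. *Flt1* was 9.93 TPM in knockout LFD mouse 7, below the other 4 mice at 13.3 to 14.3 TPM. Kdr-001 took 88.1% of the *Kdr* TPM in knockout HFD mouse 18, and Vegfb-002 took 79.9% of the *Vegfb* TPM in control LFD mouse 4, each the lowest of its group.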

How the results depend on the processing

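No paired analysis was possible because each mouse has a number of its own and the groups share none. For HFD against LFD in control mice, 2 of the 9 genes were called by DESeq2 (2205 of 15311 genes), 0 by edgeR with length offsets (1252) and 2 with all 4 groups in 1 fit (1388), beside 1 in the report (1427), and 0 to 2 when 1 mouse was left out. In knockout mice 1 was called by each of DESeq2 (2247 of 15705 genes), the newer quasi-likelihood method (1748) and the fit of all 4 groups (2100), beside 0 (1476), and 0 to 1 when 1 mouse was left out. Over both genotypes *Cdh5* and *Pecam1* were called in all 7 alternative fits and in the 20 fits without 1 mouse, and limma called 4 of the 9 genes there, and 4693 of 15574 in all. Exact tests of levels under 0.05 numbered 5, 3 with TPM scaled by TMM factors of the TPM, and 3 to 7 when 1 mouse was left out. Share tests under 0.05 numbered 0, 1 with counts, and 0 to 3 when 1 mouse was left out, the 3 without knockout HFD mouse 18. Pairs of genes under 0.05 numbered 14, and 9 both when centred by group and without the 2 farthest mice.

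Signs turned only for differences that did not pass. On LFD the genotype log2 fold change of *Pecam1* turned from -0.11 to 0.11 with limma at either pseudocount and to 0.0249 with length offsets. With limma at pseudocounts of 1 and 0.1 *Cdh5* turned from -0.10 to 0.0555 and 0.0596, and *Angpt1* from -0.05 to 0.0291 and 0.0317. *Kdr* turned from 0.00467 to -0.00892 without the filter on low values and *Flt1* from 0.08 to -0.0122 with length offsets. For diet in control mice, *Flt1* turned from -0.06 to 0.0846 and 0.0951 with limma at pseudocounts of 1 and 0.1. *Angpt2* turned from -0.03 to 0.23 and 0.27 in the same fits and to 0.0869 with length offsets. *Angpt1* turned from 0.01 to -0.0034 with DESeq2 and -0.00345 with its size factors in knockout mice, and from -0.18 to 0.0211 and 0.0236 over both genotypes with limma. The cause was not tested. For the interaction 4 signs turned in alternative fits and 13 without 1 mouse, and for genotype over both diets 4 and 14.

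Leaving out 1 mouse turned further signs within these ranges. For genotype on HFD they were -0.16 to 0.0536 for *Kdr*, -0.16 to 0.00538 for *Tek*, -0.0128 to 0.19 for *Angpt2*, -0.23 to 0.0913 for *Vegfa* and -0.16 to 0.18 for *Vegfb*. For genotype on LFD they were -0.0797 to 0.13 for *Kdr*, -0.0575 to 0.18 for *Flt1*, -0.17 to 0.0757 for *Angpt1* and -0.26 to 0.00244 for *Vegfb*. For diet they were -0.21 to 0.0549 for *Flt1* and -0.15 to 0.0816 for *Angpt2* in control mice, and -0.11 to 0.13 for *Angpt1* and -0.27 to 0.0597 for *Vegfb* in knockout mice. With 5 mice a group and spreads of 5.99% to 42.5% of the mean, small differences between groups were not detectable.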
